A study of Mus musculus with 6 samples.

Results

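The genes that build cholesterol and fatty acids were compared in spleen CD8+ T cells grown in IL-2 (CD8-TC) from Runx3-/- and WT mice. The group holds 28 genes chosen by name, namely 15 enzymes of the sterol branch, 8 enzymes of the fatty acid branch, 4 regulators of both branches (Srebf1, Srebf2, Insig1 and Insig2) and the sterol transport gene Stard4. For each gene, the row of the array paired with that gene alone was used, and where there were several, the row with the highest mean over the arrays. All 28 genes had such a row among the 19938 genes of the array, and all 28 were bright enough to be tested, among 10021 genes tested in all. The study compared Runx3-/- mice with WT (Runx3 +/+) mice to find genes that respond to the loss of Runx3, a transcription factor of the RUNX family that acts in cytotoxic T cells. There were 3 arrays per genotype, each with the RNA of cells of 1 mouse, and the labels give every mouse as an ICR male, 6 weeks old. Cells of both genotypes were stimulated through the T cell receptor with anti-CD3 and anti-CD28 for 2 days and then cultured for 4 days with IL-2 at 100 units per ml. The Runx3-/- cells alone were also sorted by flow cytometry, to take out dendritic cells that carry CD11c and, once cultured, CD4+CD8- cells, so the effect of this sorting and that of the genotype cannot be told apart.

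Cholesterol is built from acetyl-CoA through the mevalonate pathway, which yields isoprenoid units, then through squalene to lanosterol, the first sterol, and from lanosterol through a series of demethylations and reductions to cholesterol. Fatty acids are built from the same acetyl-CoA by carboxylation and chain assembly, and are then lengthened by elongases and given double bonds by desaturases. The transcription factors SREBP-1 and SREBP-2, made from Srebf1 and Srebf2, turn on both sets of genes when sterols are scarce, and the Insig proteins hold them back in the endoplasmic reticulum when sterols are plentiful. Activated T cells switch this program on to make membrane before they divide.

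The arrays were called KO-labelled and WT, since the level of Runx3 did not check the labels. Runx3 stood at 8.91, 9.11 and 9.27 (log2) on KO1, KO2 and KO3, against 8.77, 8.26 and 9.16 on WT1, WT2 and WT3, and the sources used here do not give the disrupted part of the gene. On WT1, whose label says male, the female-specific RNA Xist stood at 10.64, and it lay between 3.31 and 3.40 on each of the other 5, so the differences of the members, their medians and the counts past a threshold were also computed without WT1. All 8 T cell marker genes with a row lay above the median of the table (4.26 on the log2 scale, used here as the background level) on every array, with a mean level of 10.44 to 10.63 on the KO-labelled arrays and of 10.09 to 10.44 on the WT arrays. Of 9 dendritic cell markers, Cd74 alone passed that level, on 1 array (KO1, 5.74), and the mean level of the list was 3.46 to 3.76 in the KO-labelled group and 3.43 to 3.60 in the WT group. Cd79b of the B cell markers, Nkg7 and Klrb1c of the NK cell markers and Cd68 and Ly6g of the myeloid markers lay above it on 3 arrays or more, while the defining genes Ms4a1, Pax5, Ncr1, Csf1r and Lyz2 did not on any. Klrb1c (-1.56), Nkg7 (-1.32) and Cd79b (-0.93) were past the study's threshold on the lower side (4.33% of all genes tested). For each, every KO-labelled array lay below every WT array (10.9% of all genes tested), as for some of the enzymes described below. Klrb1c reached the background level on the WT arrays only and was tested through them, so its difference could hardly be above 0. Cd68 and Ly6g differed by -0.82 and 0.13, with overlapping groups. On the higher side, Cd4 (0.95) and the T cell marker Cd5 (1.12) were past the study's threshold (3.97% of all genes tested). For both, every KO-labelled array lay above every WT array (11.6% of all genes tested). Cd4 stood at 6.70 to 6.95 on the KO-labelled arrays and at 5.29 to 6.50 on the WT arrays. Cd5 stood at 8.92 to 9.14 on the KO-labelled arrays and at 7.13 to 8.41 on the WT arrays. The part of other cells in the results below was not tested, and in RNA from a whole culture fewer cells of a kind and less RNA per cell cannot be told apart.

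The enzymes of both branches averaged lower on the KO-labelled arrays, though few passed a test, and the regulators lay close to WT. The log2 difference, KO-labelled minus WT, was below 0 for all 15 sterol enzymes and all 8 fatty acid enzymes, and for 27 of the 28 genes in all, while it was below 0 for 52% of the 10021 genes tested. Its median was -0.69 over the sterol enzymes, -0.55 over the fatty acid enzymes and -0.05 over the 4 regulators, beside a median of -0.01 over all genes tested. These counts include Scd1, which passed the brightness filter through WT2 and WT3 only, so its difference could hardly be above 0. A filter 1 log2 unit higher dropped Scd1. It left 26 of 27 genes below 0 and a median of -0.52 over the fatty acid enzymes. None of the 28 genes passed an adjusted p of 0.05 in limma (0 of 28, with 8 at an unadjusted p under 0.05), whereas 0.629% of all genes tested passed the first and 14.1% the second. At the study's threshold, an unadjusted p under 0.05 with a change of at least 1.5-fold, 7 members were lower and 0 higher, that is 25% of the members lower beside 4.33% of all genes tested lower and 3.97% higher. The 7 genes were Hmgcs1, Mvd, Sqle, Cyp51 and Msmo1 of the sterol branch and Elovl6 and Fads2 of the fatty acid branch. All 3 KO-labelled arrays lay below all 3 WT arrays for 7 genes (25%, beside 10.9% of all genes tested), which were the same genes with Sc5d in the place of Sqle. The genes were chosen with earlier results of these arrays known, so these shares describe the group and no test was run on it.

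**Figure D1:**
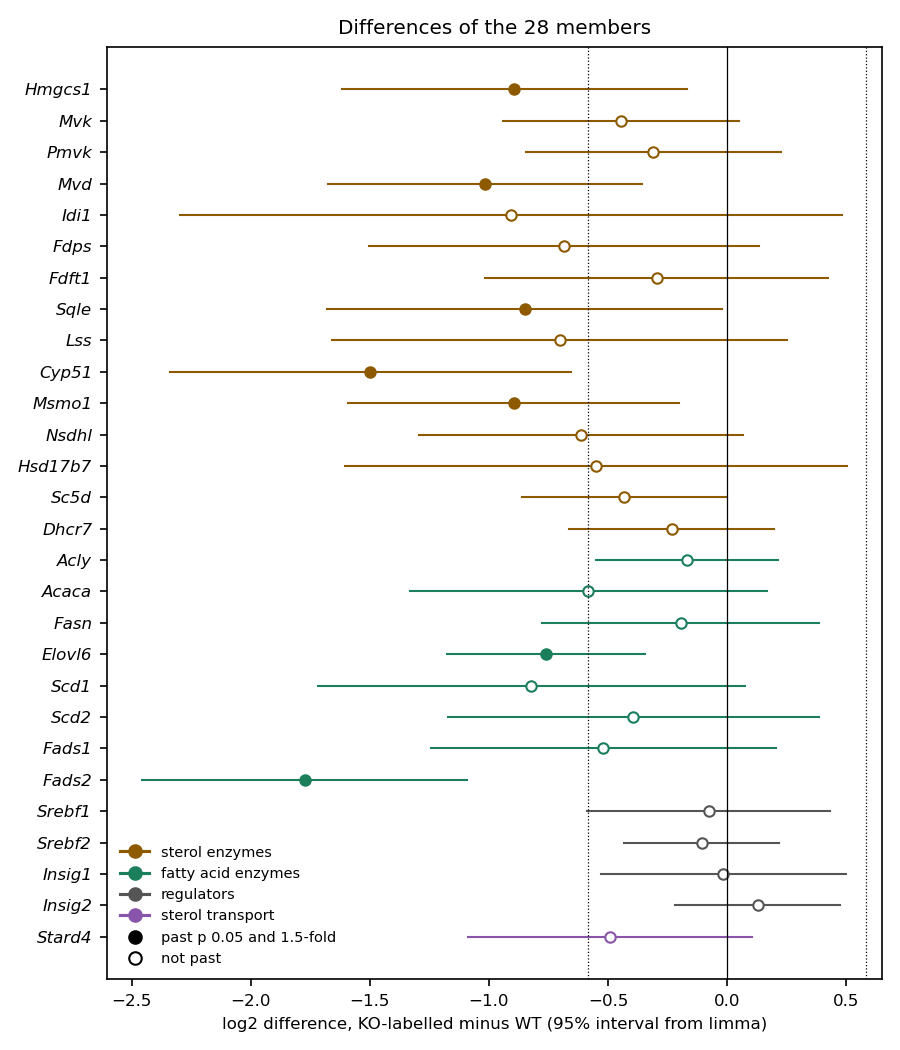
Log2 difference (KO-labelled minus WT) of each of the 28 genes with its 95% interval from limma, by branch. Filled points passed an unadjusted p under 0.05 and 1.5-fold (dotted lines), and the points run from -1.77 for Fads2 to 0.13 for Insig2.

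In the mevalonate part of the pathway, Hmgcs1 and Mvd passed the study's threshold. Hmgcs1, the synthase that makes HMG-CoA, stood at 8.15, 7.39 and 7.62 (log2) on KO1, KO2 and KO3, against 8.47, 9.18 and 8.19 on WT1, WT2 and WT3. The groups did not overlap, but KO1 and WT3 lay within 0.04 of each other. The difference was -0.89 (SE 0.31, unadjusted p = 0.0223, adjusted p = 0.283). Mvd, the decarboxylase that yields isopentenyl diphosphate, stood at 7.19, 6.15 and 6.89 on KO1, KO2 and KO3, against 7.58, 7.99 and 7.72 on WT1, WT2 and WT3. The KO-labelled arrays were all below the WT arrays and were spread more widely (SD 0.54 against 0.21, n = 3 each). The difference was -1.02 (SE 0.28, unadjusted p = 0.00814, adjusted p = 0.204), a level of 0.494 times that in WT. The enzymes around them did not pass. Mvk and Pmvk, the kinases between Hmgcs1 and Mvd, differed by -0.44 and -0.31. Idi1, the isomerase of the isoprenoid units, differed by -0.91 with an interval from -2.30 to 0.48, and its arrays spanned 6.98 to 8.92 in the KO-labelled group and 8.13 to 9.85 in WT. A second row of Idi1 differed by -0.80. Fdps, which joins the units to farnesyl diphosphate, differed by -0.69 (unadjusted p = 0.0878).

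From squalene to lanosterol the differences were of the same direction and only Sqle passed. Sqle, squalene epoxidase, stood at 7.28, 6.32 and 6.70 on KO1, KO2 and KO3, against 7.35, 8.29 and 7.21 on WT1, WT2 and WT3. KO1 lay between WT1 and WT3, so the groups overlapped. The difference was -0.85 (SE 0.35, unadjusted p = 0.0461, adjusted p = 0.343), and without WT2 it was -0.51 and no longer passed. Fdft1, squalene synthase, differed by -0.30 in the row used and by -0.45 in its other row, and Lss, lanosterol synthase, by -0.70 with WT2 alone at 7.15 and the other 5 arrays between 5.18 and 5.99.

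After lanosterol, Cyp51 had the largest difference of the sterol branch. Cyp51, the lanosterol demethylase, stood at 6.68, 5.68 and 5.97 on KO1, KO2 and KO3, against 7.31, 8.27 and 7.25 on WT1, WT2 and WT3. Every KO-labelled array lay below every WT array, by at least 0.57 on the log2 scale. The difference was -1.50 (SE 0.36, unadjusted p = 0.00401, adjusted p = 0.148), a level of 0.354 times that in WT. Msmo1, the methylsterol oxidase of the next demethylation, stood at 9.19, 8.30 and 8.31 on KO1, KO2 and KO3, against 9.37, 9.89 and 9.24 on WT1, WT2 and WT3. KO1 lay just under WT3, and KO2 and KO3 lay well under both. The difference was -0.90 (SE 0.29, unadjusted p = 0.0187, adjusted p = 0.267). Sc5d, the desaturase close to the end of the pathway, stood at 7.998, 7.62 and 7.98 on KO1, KO2 and KO3, against 8.22, 8.56 and 8.11 on WT1, WT2 and WT3. Its groups did not overlap, and its difference of -0.43 (unadjusted p = 0.0493) was under 1.5-fold. Nsdhl, a dehydrogenase of the same demethylation, differed by -0.61 with KO1 (7.82) among the WT arrays (7.74 to 7.84). Hsd17b7, a sterol ketone reductase, and Dhcr7, the last reductase, differed by -0.55 and -0.23, with overlapping groups.

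**Figure D2:**
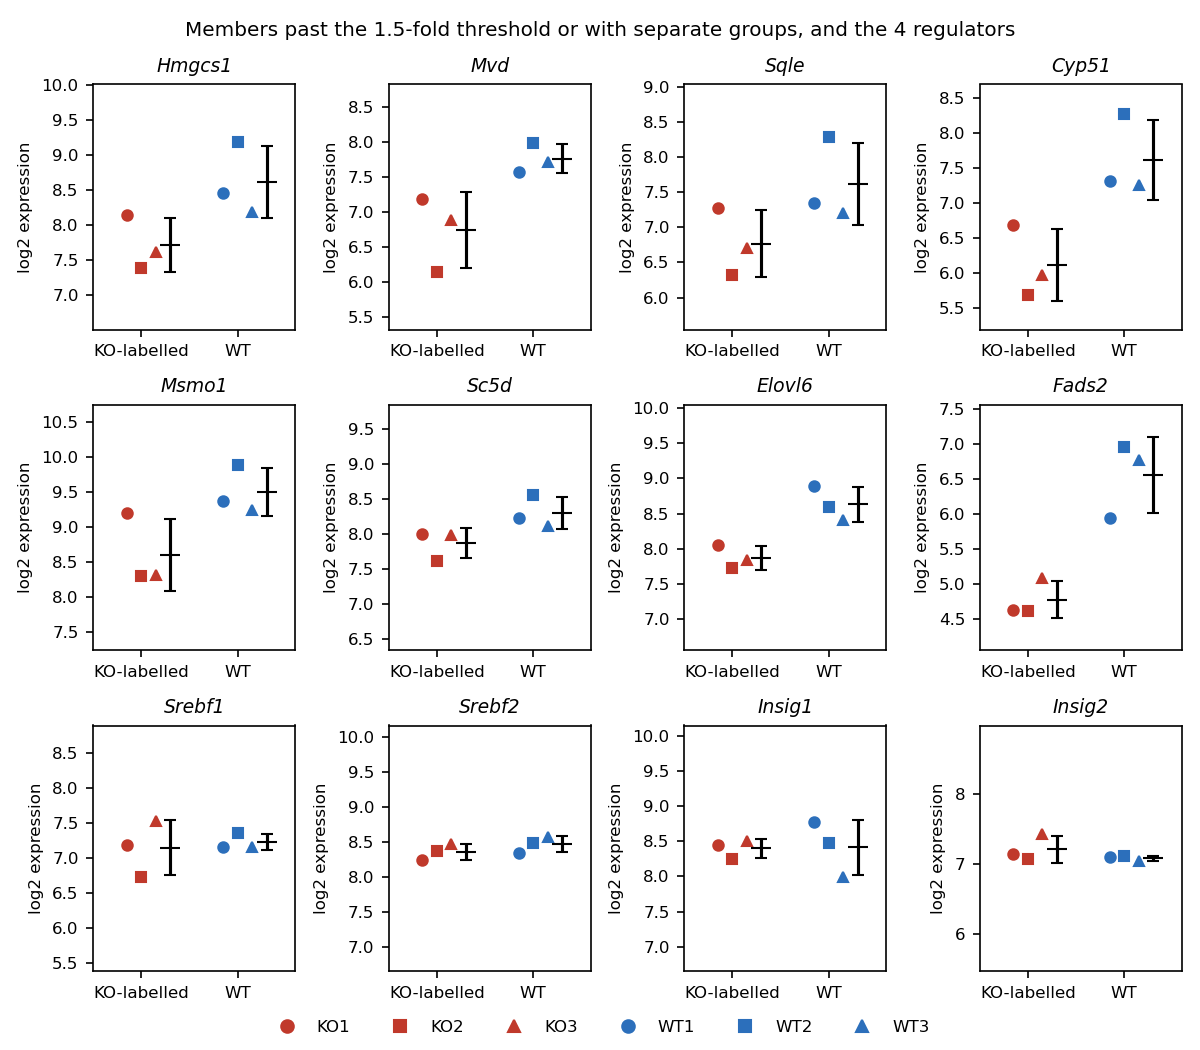
Log2 expression on each array of the genes past the study's threshold or with separate groups, and of the 4 regulators. KO-labelled arrays are red and WT arrays blue, a symbol stands for a replicate number, bars give mean and SD (n = 3 a group), and each panel spans 3.5 log2 units. Cyp51, Fads2, Mvd and Elovl6 keep a gap between the groups, while the regulators overlap.

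In the fatty acid branch, Fads2 and Elovl6 passed the study's threshold and the other 6 enzymes did not. Fads2, the desaturase that starts the synthesis of long polyunsaturated fatty acids, had the largest difference of the 28 genes. It stood at 4.64, 4.62 and 5.09 on KO1, KO2 and KO3, against 5.94, 6.95 and 6.77 on WT1, WT2 and WT3. The groups were separate by 0.85, and the KO-labelled values were close to the background level, where log2 values compress a change. The difference was -1.77 (SE 0.29, unadjusted p = 0.000473, adjusted p = 0.0604), a level of 0.292 times that in WT. Elovl6, the elongase that acts on palmitate, stood at 8.05, 7.72 and 7.84 on KO1, KO2 and KO3, against 8.89, 8.59 and 8.41 on WT1, WT2 and WT3. Every KO-labelled array lay below every WT array, and for this gene WT1 was the highest array and not WT2. The difference was -0.76 (SE 0.18, unadjusted p = 0.00345, adjusted p = 0.139), a level of 0.590 times that in WT. Fasn, the fatty acid synthase, stood at 8.12, 7.57 and 7.63 on KO1, KO2 and KO3, against 7.72, 8.42 and 7.77 on WT1, WT2 and WT3. KO1 was above WT1 and WT3, and the difference was -0.19 with an interval from -0.78 to 0.39. Acaca, acetyl-CoA carboxylase, stood at 7.03, 5.84 and 6.17 on KO1, KO2 and KO3, against 6.65, 7.20 and 6.94 on WT1, WT2 and WT3. It differed by -0.58 (unadjusted p = 0.109), again with KO1 among the WT arrays, and by -0.46 in its other row. Acly, which makes cytosolic acetyl-CoA from citrate, differed by -0.17, with an interval from -0.55 to 0.22.

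The desaturases came in neighbouring pairs on chromosome 19 that differed in size. Fads1, which acts after Fads2 and lies beside it, differed by -0.52 (interval -1.24 to 0.20), against an interval of -2.46 to -1.09 for Fads2, and the difference between them was not tested. Of the stearoyl-CoA desaturases, which make monounsaturated fatty acids, Scd2 was bright and overlapped between the groups, with 10.06, 9.38 and 10.70 on KO1, KO2 and KO3 and 10.17, 10.53 and 10.62 on WT1, WT2 and WT3, a difference of -0.39. Scd1 was below the background level on all 3 KO-labelled arrays (3.20 to 3.30) and on WT1 (3.11), and stood above it on WT2 (4.53) and WT3 (4.54) only. Its difference of -0.82 (unadjusted p = 0.0670) therefore rests on 2 arrays of a dim gene, and without WT1 it passed the study's threshold.

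The regulators differed little. Srebf1 stood at 7.19, 6.73 and 7.53 on KO1, KO2 and KO3 and at 7.16, 7.36 and 7.16 on WT1, WT2 and WT3, a difference of -0.08 with an interval from -0.59 to 0.43. The gene makes more than 1 transcript, and 1 value per gene does not separate them. Srebf2, whose factor acts mainly on sterol genes, stood at 8.25, 8.38 and 8.47 on KO1, KO2 and KO3 and at 8.35, 8.49 and 8.57 on WT1, WT2 and WT3. Its difference of -0.11 had an interval from -0.43 to 0.22. Insig1 stood at 8.45, 8.25 and 8.51 on KO1, KO2 and KO3 and at 8.78, 8.48 and 7.996 on WT1, WT2 and WT3, a difference of -0.02 (interval -0.53 to 0.50), although in many cells Insig1 is itself a target of SREBP. Insig2 stood at 7.13, 7.06 and 7.43 on KO1, KO2 and KO3 and at 7.10, 7.11 and 7.04 on WT1, WT2 and WT3. It was the single member with a difference above 0 (0.13, interval -0.22 to 0.47). The interval of Srebf1 reached a change of 1.5-fold, and those of the other 3 regulators did not. Stard4, which carries sterols between membranes, differed by -0.49 (unadjusted p = 0.0928).

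The differences of many enzymes depended on a pair of arrays, KO2 and WT2. KO2 was the lowest of the 6 arrays for 21 of the 28 genes (75%, beside 34.8% of all genes tested), and WT2 was the highest for 18 (64.3%, beside 23.6%). Both held for 11 of the 15 sterol enzymes, 4 of the 8 fatty acid enzymes and 13.8% of all genes tested. KO1 was the highest KO-labelled array for all 15 sterol enzymes (40% of all genes tested), and it lay within the range of the WT arrays for 9 of them (60%, beside 49.4% of all genes tested). Averaged as deviations from the 6-array mean of every gene, the sterol enzymes stood at 0.14, -0.75 and -0.43 on KO1, KO2 and KO3 and at 0.17, 0.81 and 0.05 on WT1, WT2 and WT3, so KO1 lay between WT1 and WT3. The fatty acid enzymes stood at -0.11, -0.64 and -0.23 on KO1, KO2 and KO3 and at 0.07, 0.55 and 0.36 on WT1, WT2 and WT3, without overlap.

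Cell-cycle genes also set KO2 apart, but not WT2. KO2 was the lowest array for all 28 tested S phase genes and all 28 tested G2/M genes, with mean deviations of -1.43 and -1.44. KO1 and KO3 stood at 0.69 and 0.46 for the S phase list, against 0.13, 0.53 and -0.38 on WT1, WT2 and WT3. For the G2/M list they stood at 0.63 and 0.75, against 0.19, 0.24 and -0.37 on WT1, WT2 and WT3. WT2 was thus not the highest array for either list, and it was the highest for 5 of the S phase and 2 of the G2/M genes. In a fit that held the G2/M average as covariate, the median of the sterol enzymes was -0.67 and that of the fatty acid enzymes -0.53. In it 9 members were past the study's threshold on the lower side, Fdps and Nsdhl in addition to the 7. Among all genes tested, 471 were lower in this fit, beside 434 without the covariate. The G2/M list had a median difference of -0.05, so the covariate was close to balanced between the groups and could shift the medians little. Whether the cell cycle bore on the enzymes was not tested.

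**Figure D3:**
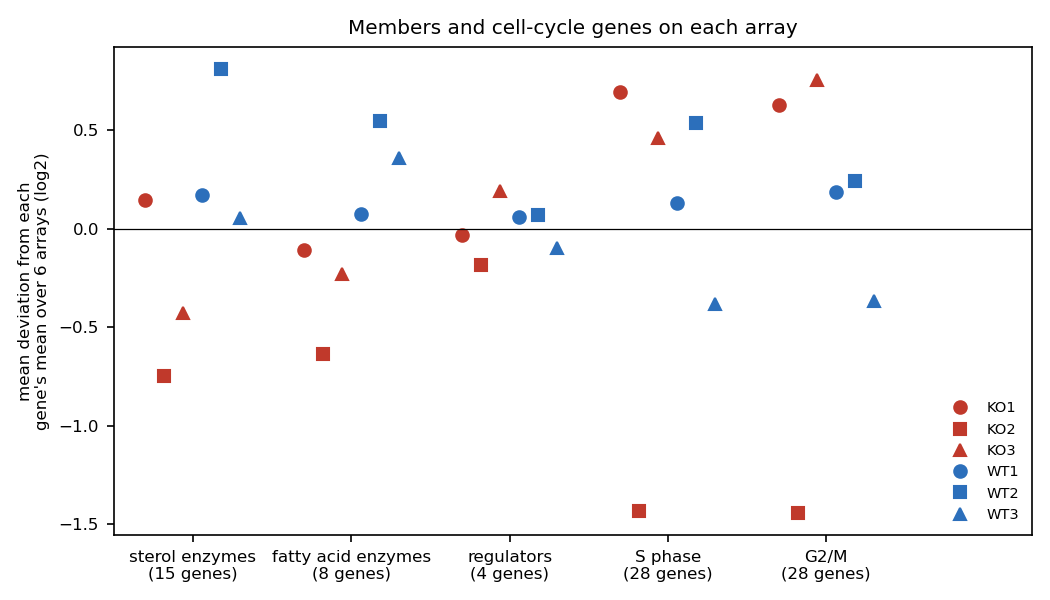
Deviation from the 6-array mean of every gene, averaged over a list (log2, vertical axis), for the 3 groups of members and for S phase and G2/M genes. KO2 is the lowest array in all 5 lists, at -1.43 and -1.44 in the cell-cycle lists, while WT2 is the highest array for the sterol enzymes (0.81).

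Without KO2 and WT2 together, the median difference was -0.19 over the sterol enzymes and -0.15 over the fatty acid enzymes, beside 0.02 over all genes tested. Idi1, Fdft1 and Fasn then stood at 0.07, 0.23 and 0.13, while 22 of the 28 differences were below 0. The share of all genes tested below 0 in this fit is not given here. A set of 4 genes, Cyp51, Mvd, Fads2 and Elovl6, passed the study's threshold in this fit of 2 arrays against 2, without each of the 6 arrays in turn and in all 17 alternatives that were run, with differences between -1.78 and -0.95 for Cyp51, -1.24 and -0.61 for Mvd, -2.08 and -1.28 for Fads2, and -0.88 and -0.63 for Elovl6. Hmgcs1 and Msmo1 passed in 12 of the 17 and Sqle in 8. The share of all genes tested that passed as often is not given here, so these counts do not set the members apart from other genes. The count of 7 was 4 without WT2 or without KO2, 12 without KO1 and 7 without WT1, the array whose sex label was not borne out by Xist and the Y-linked genes. Among all genes tested, the lower ones numbered 434 with all arrays, 372 without KO2 and WT2, 406 without WT2, 302 without KO2, 744 without KO1 and 432 without WT1. Without WT1, Fads2 also passed the adjusted threshold (-2.08, adjusted p = 0.0426).

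**Figure D4:**
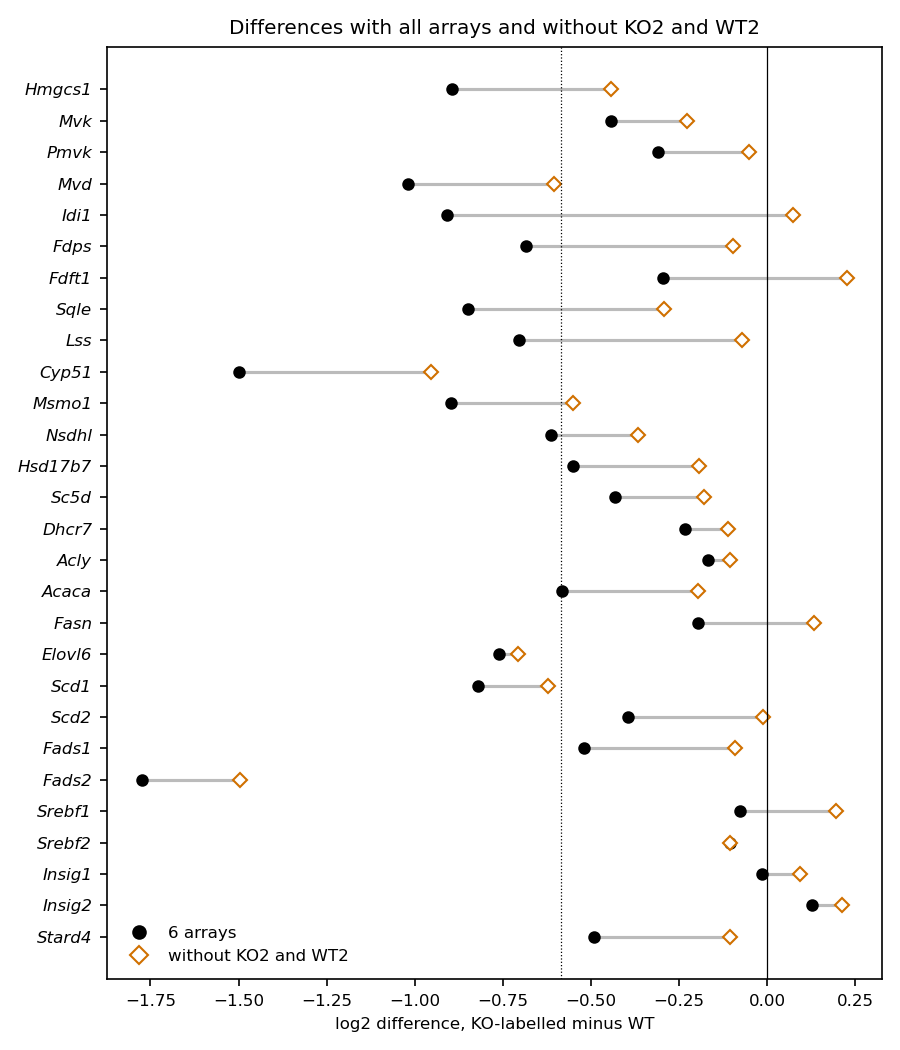
Log2 difference (KO-labelled minus WT) of each gene with all 6 arrays (black circles) and without KO2 and WT2 (open diamonds), with a dotted line at 1.5-fold lower. Cyp51, Mvd, Elovl6 and Fads2 stay beyond that line, as does Scd1, which did not pass the test, and Idi1, Fdft1, Fasn, Srebf1 and Insig1 cross 0.

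The promoters are shown for the members on which these results turned and which the sequence table holds. RefSeq promoter windows (GRCm38.p6, from 250 bases before to 50 after the start) matched 21 of the 28 genes by symbol. There was no match for Fdps, Sqle, Fdft1, Fads1, Scd1, Scd2 and Stard4. The only Acaca window (from position 84195188 on the plus strand) lies well inside the gene, which starts at 84129635. That of Fasn (up to 120824797 on the minus strand) also lies inside its gene, which runs to 120825166. Both are in the motif counts below, and other starts of these genes were not searched. The 250 bases before the start are printed for Cyp51 (chr5:4104698-4104947, minus strand), Mvd (chr8:122443423-122443672, minus strand), Fads2 (chr19:10101504-10101753, minus strand) and Elovl6 (chr3:129532136-129532385, plus strand), which passed the study's threshold in every alternative, and for Hmgcs1 (chr13:119690101-119690350, plus strand), which holds a sterol regulatory element. Capitals mark matches, on either strand, to that element (TCACNCCAC), to the SREBP E-box (TCACGTGA), to the NF-Y box (CCAAT) and to the RUNX forms TGTGGT or TGTGGC or TGCGGT or TGCGGC.
Cyp51: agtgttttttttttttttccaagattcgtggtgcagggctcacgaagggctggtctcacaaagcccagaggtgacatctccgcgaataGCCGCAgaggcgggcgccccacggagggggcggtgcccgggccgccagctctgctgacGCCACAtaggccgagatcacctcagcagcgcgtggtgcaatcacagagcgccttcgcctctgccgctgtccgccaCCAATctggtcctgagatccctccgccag
Mvd: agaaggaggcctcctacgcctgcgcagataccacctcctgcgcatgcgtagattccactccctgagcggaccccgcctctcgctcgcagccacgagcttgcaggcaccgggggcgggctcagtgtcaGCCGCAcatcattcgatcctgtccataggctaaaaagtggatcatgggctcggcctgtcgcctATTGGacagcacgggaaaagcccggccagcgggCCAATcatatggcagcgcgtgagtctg
Fads2: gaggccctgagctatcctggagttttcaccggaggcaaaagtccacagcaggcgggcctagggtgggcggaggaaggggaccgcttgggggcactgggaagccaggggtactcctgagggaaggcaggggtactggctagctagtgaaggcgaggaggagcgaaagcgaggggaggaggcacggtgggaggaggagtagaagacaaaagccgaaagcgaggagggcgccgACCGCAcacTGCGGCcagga
Elovl6: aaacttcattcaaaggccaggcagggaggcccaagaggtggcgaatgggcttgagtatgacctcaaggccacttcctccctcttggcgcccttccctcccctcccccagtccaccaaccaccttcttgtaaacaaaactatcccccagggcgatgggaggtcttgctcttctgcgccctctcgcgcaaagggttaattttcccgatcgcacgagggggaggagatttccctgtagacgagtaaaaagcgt
Hmgcs1: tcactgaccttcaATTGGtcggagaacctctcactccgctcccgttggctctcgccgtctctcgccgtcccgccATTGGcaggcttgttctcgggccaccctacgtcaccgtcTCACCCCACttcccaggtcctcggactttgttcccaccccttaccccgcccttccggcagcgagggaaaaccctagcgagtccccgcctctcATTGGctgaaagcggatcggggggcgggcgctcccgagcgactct

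In the Hmgcs1 window the element began at position -137 from the start, with an NF-Y box on each side of it, and no RUNX form was there. Hmgcs1 was the only member with TCACNCCAC in the whole window (1 of 21, beside 1.28% of the 8060 tested genes with a window), and no member had TCACGTGA (0 of 21, beside 2.48%) or its longer form ATCACGTGA, which contains it. Counts are of genes, and a gene with several windows (3 each for Dhcr7, Insig2 and Srebf1, 2 for Pmvk) counted if any of them held the motif. The NF-Y box was in all 12 sterol enzymes with a window, though not in every window of Dhcr7 and Pmvk. It was in 2 of 5 fatty acid enzymes with a window, Acly and Fasn, and in 43% of tested genes. The Sp1 box (GGGCGG, which can overlap other G-rich motifs) was in 11 of the 12 and 2 of the 5, beside 68.3%. A RUNX form was in 12 of the 21 members with a window (57.1%), beside 54.7% of tested genes, so the members were close to all genes in this respect. Cyp51 had TGCGGC and TGTGGC, Mvd had TGCGGC, Fads2 had TGCGGT and TGCGGC within the last 20 bases before the start, and Elovl6 had TGCGGT after the start and no other motif searched. A match is a run of letters and not a bound site. Its absence from a window says nothing of variant forms of the motif within the window or of sites elsewhere.

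Other genes of sterol and fatty acid metabolism were listed by role to set beside the members. Of 63 such genes, 51 had a row of their own here, 38 were tested and 13 were dim on every array, and 12 were not analysed here. None of the 38 passed an adjusted p of 0.05 (0 in limma, with 3 lower and 2 higher at an unadjusted p under 0.05), 1 was lower and 0 higher at the study's threshold, and their median difference was -0.09. The gene past it was Elovl7, an elongase of saturated chains, at 4.91, 5.63 and 4.43 on KO1, KO2 and KO3, against 7.10, 5.32 and 6.33 on WT1, WT2 and WT3. KO2 was above WT2, and the difference was -1.26 (SE 0.48, unadjusted p = 0.0356, adjusted p = 0.317). Its relative Elovl5, which lengthens polyunsaturated chains, was higher on every KO-labelled array (10.63 to 10.91) than on the WT arrays (10.42 to 10.54), by 0.25 (unadjusted p = 0.109).

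Of the 5 tested genes listed as other sterol enzymes, 3 had a difference below 0. Tmem97 had the largest, -1.25 (unadjusted p = 0.109), with overlapping groups. KO2 was its lowest array (4.98) and WT2 its highest (8.51). Tm7sf2 and Ggps1 differed by -0.12 and 0.02. Ebp, the isomerase of sterol intermediates, stood at 8.34, 7.85 and 8.16 on KO1, KO2 and KO3, against 8.55, 8.69 and 8.66 on WT1, WT2 and WT3, a difference of -0.52 (unadjusted p = 0.0154). Lbr, a nuclear membrane protein that is also a sterol reductase, was higher by 0.50 (unadjusted p = 0.0184), at 10.90 to 11.03 on the KO-labelled arrays and 10.20 to 10.70 on the WT arrays. Neither reached 1.5-fold. Of the genes that process SREBP, Scap, the escort of SREBP to the Golgi, stood at 7.07, 6.87 and 6.80 on KO1, KO2 and KO3, against 7.30, 7.49 and 7.41 on WT1, WT2 and WT3, a difference of -0.49 (unadjusted p = 0.0104, adjusted p = 0.219). Mbtps1, the first protease to cut SREBP, differed by 0.46 (unadjusted p = 0.0334), and for both genes the groups did not overlap. The smallest p in the other roles was that of Npc2, a lysosomal sterol carrier, for uptake (0.64, unadjusted p = 0.0817), where Npc1, the membrane protein it hands sterol to, differed by -1.15 (unadjusted p = 0.0860). In the remaining roles it was that of Abcg1, a sterol exporter, for efflux (0.43, unadjusted p = 0.178), Lpin2 for esterification and storage (0.71, unadjusted p = 0.112), and Pggt1b, a subunit of a protein prenyltransferase, for prenylation (0.20, unadjusted p = 0.225). The difference was below 0 for 2 of the 4 tested uptake genes, 2 of 6 efflux genes, 3 of 6 esterification and storage genes and 3 of 6 prenylation genes. It was below 0 for 1 of the 2 tested SREBP processing genes. Of the other fatty acid enzymes it was below 0 for 8 of the 9 tested, with a median of -0.33.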

How the data were processed

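Gene expression in IL-2-activated CD8-TC of 3 Runx3-/- and 3 WT mice was measured on Affymetrix mouse gene ST 1.0 arrays, 1 per mouse. The authors normalised the scanner files in Partek Genomics Suite by RMA with GC correction, and the deposited values are log2 values per transcript cluster, 1 column per array, with no detection calls. The sources used here give no version.

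Of 35399 rows, 21789 were paired with 1 gene symbol by the platform's table, 1621 with several and 11989 with none here. A gene, taken at its brightest row on average, was tested if its highest value reached the table median of 4.26. KO-labelled and WT arrays were compared with limma 3.58.1 in R 4.3.3 (lmFit and eBayes, no covariate, two-sided), with Benjamini-Hochberg adjustment over 10021 genes. SE and 95% intervals are moderated. The fit was tested on simulated data. The replicates are individual mice with their cultures, and the number of arrays limits the precision. Array medians lay between 4.15 and 4.35.

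The members, the lists, the motifs and the alternatives were chosen with earlier results of these data known. All members are named, and values per array are given for those past the study's threshold or with separate groups, the regulators, Hmgcs1, Sqle, Fasn and Acaca. Array values of Lss, Nsdhl, Idi1, Scd1 and Scd2 were added after they were seen. Of the other pathway genes, the smallest p of each role and genes past the threshold are named. Elovl5, Lbr, Tmem97, Tm7sf2, Ggps1, Mbtps1 and Npc1 were added after they were seen. Alternatives were the filter on dim rows, the normalization, the mean of a gene's rows, the replicate block, other variance priors, array weights, the G2/M covariate and arrays left out. Figures were drawn with matplotlib 3.10.9.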

Additional observations from a re-analysis of the deposited data

How the results depend on the processing

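Some alternatives cannot change a difference, namely the filter, the variance priors and the unmoderated model. The replicate block, balanced between the groups, cannot either, nor can the mean of rows for a gene with 1 row. With these included, over the 28 genes and 17 alternatives, 457 of 475 differences kept their direction and their side of an adjusted p of 0.05. In all, 22 genes kept their direction throughout. The 5 that newly passed were Fads2 without WT1, and Mvd, Cyp51, Elovl6 and Fads2 with array weights (4 genes past an adjusted p of 0.05, adjusted p = 0.0493, 0.0249, 0.0242 and 0.0403). Among all genes tested, those past it numbered 63 in the main fit, 17 without WT1 and 547 with array weights, so that setting raised the count widely. Signs turned with array weights for Fdft1 (0.050), Scd2 (0.14), Srebf1 (0.21) and the regulators' median (0.10). Without KO2 and WT2 they turned for Idi1 (0.072), Fdft1 (0.23), Fasn (0.13), Srebf1 (0.20), Insig1 (0.09) and the regulators' median (0.14), the count of 7 lower genes was 4, and the medians were -0.19 (sterol enzymes), -0.15 (fatty acid enzymes) and -0.11 (all members). With 1 array left out, the lower members numbered 4 to 12, those past an adjusted p of 0.05 numbered 0 to 1, the medians ran from -0.93 to -0.39 (sterol enzymes), -0.76 to -0.24 (fatty acid enzymes), -0.11 to 0.10 (regulators) and -0.76 to -0.34 (all members), Idi1 from -1.40 to -0.41, Fdft1 from -0.45 to -0.023, Scd2 from -0.72 to -0.059, Fasn from -0.37 to 0.030, Srebf1 from -0.27 to 0.13 and Insig1 from -0.23 to 0.16. An unmoderated linear model left 4 lower members. Among all genes tested, 434 were lower in the main fit, 372 without KO2 and WT2, 302 to 744 with 1 array left out and 267 in the unmoderated model. The 1 other pathway gene at the study's threshold became 2 with median normalization, array weights or the G2/M covariate, 0 with the replicate block or the unmoderated model, 3 without KO2 and WT2, and 0 to 3 with 1 array left out, and 1 was higher with array weights (0 to 1 with 1 array left out). The cause of these changes was not tested.

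The replicate numbers were not taken to pair the arrays, as deviations of same-numbered arrays from their group means correlated at -0.131, -0.369 and -0.133. With the number as a replicate block, 6 members (not Sqle) passed the study's threshold and 0 passed an adjusted p of 0.05. The medians (-0.69 and -0.55) are the same by design, as the block is balanced between the groups. The RUNX form TGCGGT was in 3 members, and in 2 with the bases before the start only. Dim genes, such as Scd1, are limited by signal over background, where log2 values compress a change.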
